A study of Mus musculus with 4 samples.

Results

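Hybrid cardiomyocytes are ventricular muscle cells that carry RNA of both Tnnt1, here the marker of the compact outer wall, and Nppa, the marker of the inner trabeculae. Single-cell RNA sequencing of mouse ventricles at embryonic day 14.5 gave 45551 cell barcodes, of which 250 met the definition. Counts are of unique molecular identifiers (UMIs), each standing for 1 captured RNA molecule. Cells were chosen by measured gene levels. A barcode was taken if it held 1000 to 7000 genes, at most 15% UMIs of mitochondrial genes, at least 1% UMIs of Tnnt2, Actc1, Tnnc1 and Ttn together, at most 1 UMI of Pecam1, Cdh5, Emcn and Egfl7 together, and at most 3 UMIs of 8 cell cycle genes (Rrm2, Esco2, Pclaf, Hist1h1b, Ube2c, Ccnb1, Cenpf and Hmmr). Among such cells with Sln under 0.1% of UMIs and no Tbx3 UMI, a hybrid cell had Tnnt1 at 0.05% or more and Nppa from 0.05% to under 0.5%. The cells were thus selected on the levels of these genes. The genes named here are given below as a description with no test. Mitochondrial genes, which entered the definition as a sum, stayed in the tests, where the selection bears on their values.

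Each group comprised 2 libraries, and each library pooled the ventricles of 3 embryos on a C57BL/6 background. Controls were Tie2Cre; Ets1 fl/+ and knockouts (eKO) were Tie2Cre; Ets1 fl/fl, and all 4 libraries are labelled batch 1. Tie2Cre is active in endothelium and endocardium and also in blood cells, so cardiomyocytes were not the cells from which Ets1 was deleted, and the controls carried the Cre and 1 floxed allele. The comparison asks how cardiomyocytes at the border of the compact and trabecular programs differ when the endothelium lacks Ets1. Hybrid cells numbered 42 in control replicate 1, 24 in control replicate 2, 42 in eKO replicate 1 and 142 in eKO replicate 2. Their summed depth was 414215, 285089, 566045 and 975748 UMIs in that order, which is the order of every set of 4 values below.

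The embryonic ventricle builds a dense outer wall of dividing cardiomyocytes around a meshwork of muscular ridges that project into the lumen. The outer wall is marked by the transcription factor Hey2, and the ridges by the growth factor Bmp10, by natriuretic peptides and by genes of the fast conduction system that later forms from them. Where the layers meet, cells can hold transcripts of both programs. Tnnt1 encodes the slow skeletal troponin T of the thin filament, and Nppa encodes atrial natriuretic peptide, which ventricular muscle makes in the fetus and largely shuts off after birth.

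Ets1 itself was measured first. In a gate of endothelial barcodes (at least 4 UMIs of Pecam1, Cdh5, Emcn and Egfl7, with cardiac muscle genes under 0.5%, a gate chosen after the data were seen), Ets1 stood at 303, 272, 137 and 101 CPM (UMIs of the gene per 1000000 UMIs). The eKO libraries were the lower ones, and the groups did not overlap. Hybrid cells held 4, 3, 6 and 13 Ets1 UMIs, or 9.66, 10.5, 10.6 and 13.3 CPM. The labels do not state which exons are floxed, and counts from the 3′ end of a transcript may not read the deleted part.

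Several features set libraries apart before any result. eKO replicate 2 was the shallowest, with a median of 6565 UMIs per hybrid cell against 11090, 11168 and 13866 in control replicate 1, control replicate 2 and eKO replicate 1. It gave 142 of the 250 hybrid cells. It also held the most free Nppa RNA, since fibroblast-gate barcodes, which should lack cardiac muscle RNA, carried Nppa at 35.6, 17.4, 24.2 and 82.2 UMIs per 1000000 and Tnnt1 at 56.4, 38.3, 65.7 and 74.2. The mix of male and female embryos differed too, and embryos were collected without regard to sex. Xist, the RNA of the inactive X chromosome, had 0, 30, 91 and 315 UMIs in hybrid cells, and the Y-linked Uty had 33, 23, 17 and 0. Control replicate 1 thus held no Xist UMI and eKO replicate 2 no Uty UMI, and sex-linked RNA cannot be told apart from genotype. Any pair of libraries shared between 19 and 47 barcodes by their letters. In hybrid cells, 14.3%, 4.17%, 14.3% and 7.04% of barcodes were called doublets, against 5.92%, 5.01%, 6.77% and 5.68% in the compact gate.

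Hybrid cells held both markers at modest levels. Tnnt1 made up a median of 0.118%, 0.108%, 0.117% and 0.147% of UMIs per cell, and Nppa a median of 0.129%, 0.127%, 0.0894% and 0.0841%. Across the 250 cells Tnnt1 ranged from 0.05% to 1.08% and Nppa from 0.0501% to 0.482%. The markers rested on few molecules, with medians over all hybrid cells of 10.5 Tnnt1 UMIs and 8.0 Nppa UMIs. In 26 of the 250 cells at least 1 of the markers had 2 UMIs or fewer, and 17 of these cells came from eKO replicate 2. The limits ran through a continuum of cells. Nppa lay from 0.05% to 0.06% in 52 hybrid cells, while 53 cells with Tnnt1 fell just short of the limit, at 0.04% to 0.05%. Of these, 35 of the 52 and 38 of the 53 came from eKO replicate 2. At the upper Nppa limit 12 cells lay from 0.4% to 0.5% and 9 cells from 0.5% to 0.6%. At the Tnnt1 limit 35 cells lay from 0.05% to 0.06% and 37 from 0.04% to 0.05%.

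**Figure D1:**
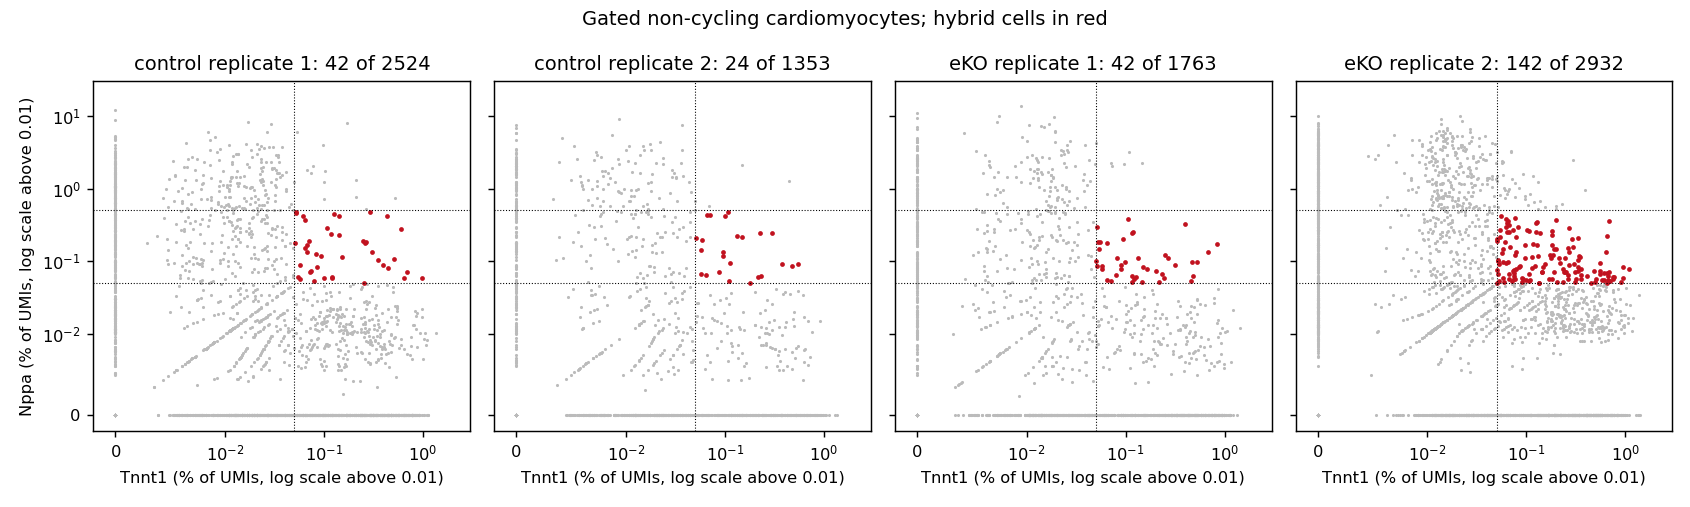
Tnnt1 (x axis) and Nppa (y axis) as a percent of each cell's UMIs in gated non-cycling cardiomyocytes, 1 point per cell and 1 panel per library, on scales that are logarithmic above 0.01; dotted lines mark the limits at 0.05% and 0.5%. The 250 hybrid cells, in red, join a cloud rich in Tnnt1 and poor in Nppa to a cloud rich in Nppa and poor in Tnnt1.

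The remaining genes of the definition behaved as follows in the hybrid cells. Summed over hybrid cells, Tnnt1 reached 2030, 1650, 2210 and 2470 CPM and Nppa 1920, 1960, 1250 and 1330 CPM. For reference, the compact gate (the same conditions with Tnnt1 at 0.05% or more and Nppa under 0.05%) held 2866 cells with a mean of 3370 ± 400.0 CPM Tnnt1 and 50.5 ± 20.8 CPM Nppa (SD, n = 4 libraries). The trabecular gate (Nppa at 0.5% or more and Tnnt1 under 0.05%) held 1129 cells with 99.7 ± 10.9 CPM Tnnt1 and 20000 ± 3570 CPM Nppa. Mean hybrid Tnnt1 was thus 0.62 of the compact level and below it in all 4 libraries, and mean hybrid Nppa was 0.0808 of the trabecular level. The structural genes of the definition were abundant, with Tnnt2 at 7860, 8010, 8440 and 8550 CPM, Actc1 at 11400, 10400, 12700 and 11200, Tnnc1 at 4390, 3690, 3830 and 5010, and Ttn at 8260, 8610, 9310 and 6010. The genes set low by the definition were low, since Pecam1 had 3 UMIs in all hybrid cells, Cdh5 1, Emcn 2, Egfl7 17 and Sln 9, and Tbx3 had 0. Of the cell cycle genes, Ube2c was the most abundant at 119 UMIs, followed by Pclaf with 41, Rrm2 with 37, Cenpf with 16, Hist1h1b with 10, Ccnb1 with 7, Esco2 with 4 and Hmmr with 3.

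The stretches just upstream of the RefSeq starts of Nppa and Tnnt1 are shown because the coexistence of their transcripts defines these cells. Sequences are from RefSeq on GRCm38, 5′ to 3′, ending at the base before the annotated start, with Nppa at chr4:148000472-148000721 on the plus strand and Tnnt1 at chr7:4515976-4516225 on the minus strand. In GENCODE the minus-strand Tnnt1 gene begins at 4516382, so there the Tnnt1 stretch lies inside the gene, whereas both place the Nppa start at 148000722. Capitals mark matches, on either strand, to any of the motifs searched. The first was the TATA box with the letters TATAAA, bound by the general transcription machinery. The next was a motif of GATA factors with the letters GATAA. T-box factors were searched by the letters AGGTGTGA, and the cardiac factor NKX2-5 by the letters TNAAGTG. An MCAT motif, known from muscle genes, was searched by the letters CATTCC and had no match in either stretch, and no matches overlapped. The motifs were chosen with the sequences in view.
Nppa: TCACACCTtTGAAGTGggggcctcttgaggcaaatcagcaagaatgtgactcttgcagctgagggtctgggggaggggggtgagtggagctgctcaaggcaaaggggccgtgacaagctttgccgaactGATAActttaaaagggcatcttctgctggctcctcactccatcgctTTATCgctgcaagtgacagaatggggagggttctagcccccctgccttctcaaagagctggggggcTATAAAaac
Tnnt1: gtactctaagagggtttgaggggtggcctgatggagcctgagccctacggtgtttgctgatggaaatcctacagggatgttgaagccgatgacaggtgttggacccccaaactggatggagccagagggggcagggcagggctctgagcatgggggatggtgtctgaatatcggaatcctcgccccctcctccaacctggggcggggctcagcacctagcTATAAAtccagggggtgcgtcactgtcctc
The Nppa stretch held 1 T-box, 1 NKX2-5 and 2 GATA matches beside a TATA box, and the Tnnt1 stretch held a TATA box only. Of 32536 distinct mouse promoter stretches of the same length, 12.3% held the TATA box, 22.5% the GATA motif, 1.12% the T-box motif, 10.0% the NKX2-5 motif and 12.6% the MCAT motif. A match is a description of letters, not of a bound site.

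Several markers of other lineages were at 0 in hybrid cells, while some lists summed to more than in the compact gate. The compact gate was deeper in sum, at 9797623, 4810200, 7240290 and 6836595 UMIs. It held 118 UMIs of Sox9, 22 of Ptprc, 15 each of Rgs5 and Aldh1a2, 8 of Msln, 7 of Cldn5, and 5 each of Upk1b, Myh11 and Isl1. At the depth of the hybrid cells, a 0 for genes this rare does not show absence. Of 9 fibroblast genes, Sox9 was at 0 in hybrid cells, the list summed to 21.7, 21.0, 19.4 and 74.8 CPM, and its most abundant member Col1a1 had a mean of 8.56 ± 6.85 CPM, which is below the compact gate in all 4 libraries. Of 10 endothelial genes outside the definition, Cldn5 was at 0 and the list summed to 67.6, 49.1, 21.2 and 43.0 CPM, led by Fabp4, against 35.3, 26.6, 29.4 and 61.4 in the compact and 35.8, 20.7, 27.8 and 56.3 in the trabecular gate. Among 8 immune genes, Ptprc, the pan-leukocyte marker, was at 0, and the list summed to 41.0, 35.1, 19.4 and 135 CPM, led by Lyz2. The compact gate had 24.8, 9.56, 12.4 and 57.0 CPM and the trabecular gate 115, 43.5, 70.9 and 111. Only Lyz2 was above the compact gate in all 4 libraries, and it was below the trabecular gate in each, with means of 34.4 CPM in hybrid, 7.57 in compact and 80.3 in trabecular cells. Epicardial Upk1b, Msln and Aldh1a2 were at 0, and Krt19 made up most of the 82.1, 137, 98.9 and 132 CPM of that list, against 75.3, 105, 89.5 and 119 in the compact and 73.0, 60.7, 35.5 and 51.0 in the trabecular gate. Of 7 smooth muscle and pericyte genes, Myh11 and Rgs5 were at 0, but the list summed to 526, 505, 466 and 526 CPM, led by Tagln, against 335, 397, 321 and 353 in the compact and 363, 388, 258 and 346 in the trabecular gate. The 7 erythroid genes summed to 169, 52.6, 129 and 4820 CPM, and eKO replicate 2 stood apart through 1 cell with 37.1% hemoglobin UMIs. Their sums were 2030, 65.1, 2790 and 2060 CPM in the compact and 1300, 64.2, 141 and 340 in the trabecular gate. Genes of the atrioventricular canal and pacemaker summed to no more than 49.1 CPM in any library, and Isl1 was at 0. Myl7, an atrial light chain, was at 744, 2830, 910 and 1490 CPM, with control replicate 2 above the rest.

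Hybrid cells were next compared with the compact and trabecular gates in genes not named in the definition. The gates are separated by Tnnt1 and Nppa in these very cells, so differences between gates were described by library and not tested. Of 3344 genes at 50 CPM or more in a gate, 314 (9.39%) had hybrid levels between the other gates in all 4 libraries, 105 were above both and 68 below both. Against the compact gate, 308 of 3187 genes were higher in hybrid cells in all 4 libraries and 445 lower. Against the trabecular gate, 937 of 3216 were higher and 596 lower.

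Trabecular genes were present in hybrid cells at an intermediate level. Cited1, a transcriptional coregulator of trabecular muscle, was at 529, 368, 468 and 497 CPM in hybrid cells, against 131 ± 32.4 in the compact and 2010 ± 812 in the trabecular gate (mean ± SD, n = 4 libraries, here and below). Nppb, the sister peptide of Nppa, was at 162, 168, 35.3 and 129 CPM, against 30.2 ± 8.53 and 334 ± 160.0. Bmp10 was at 24.1, 10.5, 15.9 and 12.3 CPM on 34 UMIs, against 1.83 ± 0.98 and 125 ± 29.7. Each of the 3 genes stood above the compact and below the trabecular gate in all 4 libraries. Gja5, the connexin of the conduction system, was placed likewise at 36.2, 35.1, 31.8 and 27.7 CPM. The guidance ligand gene Slit2 varied between libraries, at 285, 35.1, 136 and 205 CPM against 29.2 ± 11.2 and 1620 ± 584, and control replicate 2 was close to the compact level. Of the 13 trabecular and conduction genes listed, 10 were above the compact gate in all 4 libraries and 12 were above the trabecular gate in none. The exception was Kcne1, a potassium channel subunit, which at 203, 189, 198 and 204 CPM lay above the trabecular and below the compact gate.

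The compact zone list was mixed in hybrid cells. Hey2 was at 65.2, 56.1, 88.3 and 78.9 CPM in hybrid cells, against 89.5 ± 7.9 in the compact and 24.2 ± 6.99 in the trabecular gate. It was above the trabecular gate in every library and above the compact gate in 1 of the 4. The cardiac T-box factor gene Tbx20 was at 372, 481, 433 and 285 CPM, between 469 ± 80.7 and 244 ± 55.8, and Mycn, a growth regulator, at 26.6, 24.6, 15.9 and 19.5 CPM, against 19.1 ± 1.85 and 6.36 ± 0.598. Of the 8 compact zone genes, 4 were above the trabecular gate in all 4 libraries and none was above the compact gate in all 4. Other members stood nearer to the trabecular level, with hybrid means of 59.2 CPM for Ccnd1 (46.0 in the compact and 58.7 in the trabecular gate), 321 for Ccnd2 (294 and 313), 109 for Prdm16 (124 and 105) and 107 for Nkx2-5 (123 and 109).

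The genes with the highest ratios sharpen the picture. Outside the definition, the genes most raised over the compact gate included Slit2, Myl1, Nppb, Sema3a, Cited1, Mest, Gtsf1, Chrm2 and Adamts19, each of them higher still in the trabecular gate. The imprinted gene Mest, for example, was at 531, 393, 465 and 551 CPM in hybrid cells, against 143 ± 25 and 2040 ± 361. Over the trabecular gate, the leading genes included Epha3, Ryr3, Sema5a, Plcb1, Fstl4, Upp1, Itga9, Unc13c and Kcnd2. Epha3, an ephrin receptor gene, was at 104, 193, 98.9 and 99.4 CPM, against 9.26 ± 3.9 in the trabecular and 138 ± 17.3 in the compact gate. Of the genes named over the trabecular gate, Ryr3, Sema5a and Unc13c were below the compact gate in all 4 libraries, whereas Plcb1, Epha3 and Kcnd2 were above it in 1 library and Fstl4, Upp1 and Itga9 in 2 of 4.

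**Figure D2:**
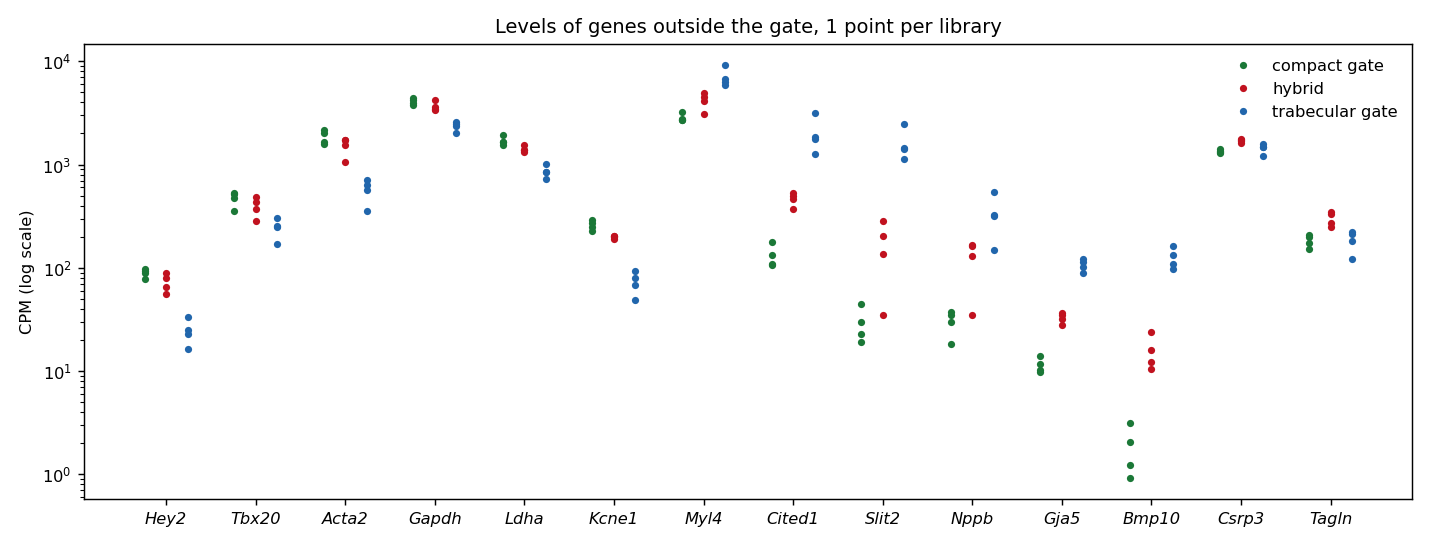
CPM (y axis, log scale) of genes outside the definition in hybrid cells, the compact gate and the trabecular gate, 1 point per library. Hey2 to Kcne1 are lowest in the trabecular gate, Myl4 to Bmp10 are lowest in the compact gate with hybrid cells in between, and Csrp3 and Tagln are highest in hybrid cells.

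To place hybrid cells along this axis, genes that differed at least 4-fold between the compact and trabecular gates in all 4 libraries were taken, a choice made after the data were seen. The 27 genes of the trabecular side reached a median of 19.2% of the way from the compact to the trabecular level (26.3%, 11.3%, 17.9% and 14.2% by library), and 23 of them stayed under 50% in all 4 libraries. The 10 genes of the compact side had moved a median of 46.0% of the way (55.6%, 56.6%, 27.0% and 52.4%), with eKO replicate 1 the lowest. These genes were scattered, with means from -20.5% for Plcb1 to 75.7% for Plxdc2. In all 4 libraries, 1 of them was past 50% and 2 were under 50%. By median position, hybrid cells thus stood farther from the compact level in compact-side genes than in trabecular-side genes, in each library.

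Single hybrid cells were spread along the axis. Trabecular-side UMIs made up a median of 76.0%, 66.5%, 64.0% and 69.2% of all axis UMIs per hybrid cell, against 38.1%, 24.7%, 33.3% and 29.4% in the compact gate and 99.2% to 100% in the trabecular gate. In every library the hybrid median lay between the others. From 20% to 80%, where both sides are present, lay 52.4%, 62.5%, 54.8% and 46.8% of hybrid cells, but also 66.8%, 53.3%, 58.1% and 56.3% of compact-gate cells. A further 42.9%, 33.3%, 33.3% and 40.4% of hybrid cells lay above 80%, against 8.21%, 6.03%, 8.25% and 10.3% of compact-gate cells. Axis UMIs per hybrid cell were few, with medians of 22.0, 25.5, 32.0 and 13. Of 23 hybrid barcodes called doublets, 65.2% lay from 20% to 80%, against 49.1% of those not called.

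**Figure D3:**
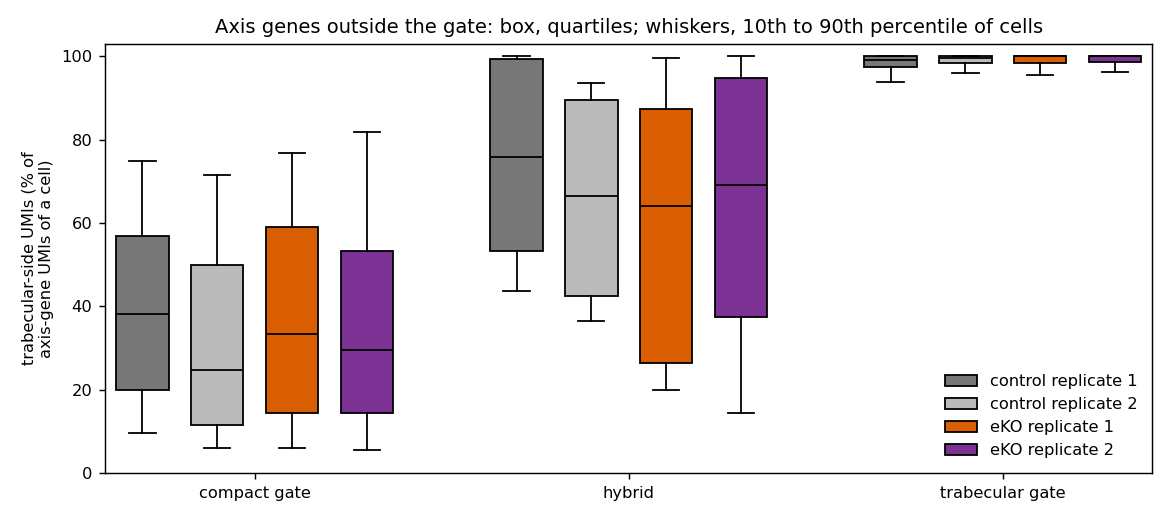
Trabecular-side UMIs as a percent of axis-gene UMIs per cell (y axis), by gate and library (boxes, quartiles with the median; whiskers, percentiles 10 and 90 of cells). Hybrid medians of 64.0% to 76.0% lie between the compact gate and the trabecular gate, and the hybrid boxes are the widest.

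Hey2 was read in more hybrid cells than Bmp10. After thinning the barcodes of at least 3000 UMIs to 3000, a depth chosen after the data were seen, Hey2 was read in 23.5%, 12.5%, 23.8% and 19.3% of hybrid cells, and in 3.98%, 5.58%, 2.76% and 4.79% of fibroblast-gate barcodes, which give the background. Bmp10 was read in 5.88%, 4.17%, 0% and 2.22% of hybrid cells and in no more than 0.325% of fibroblast-gate barcodes. Cited1 was read in 58.8%, 54.2%, 42.9% and 59.3% of hybrid cells, against 3.62%, 1.62%, 2.11% and 5.94% in the background. The exact intervals of hybrid cells and background were apart in all 4 libraries for Cited1 and in all but control replicate 2 for Hey2, where 3 of 24 cells gave 2.66% to 32.4%. For Bmp10 they were apart in control replicate 1 alone, at 0.72% to 19.7% against at most 0.665%. In eKO replicate 1 Bmp10 was read in 0 of 42 thinned cells (up to 8.41% of cells at that depth) and in 3 of 42 (7.14%) at full depth. Slit2 was read in 57.4% to 70.1% of fibroblast-gate barcodes, which make it themselves, so it gives no background here. At full depth Bmp10 was read in 5, 2, 3 and 7 hybrid cells, of which 1, 2, 1 and 3 also held Hey2, itself read in 14, 13, 23 and 56.

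Some genes were higher in hybrid cells than in both the compact and the trabecular gate. Of 3344 genes at 50 CPM or more in a gate, 105 were so in all 4 libraries and 68 were below both. Levels in cells with other combinations of Tnnt1 and Nppa were not computed. Csrp3, a stretch sensor of the Z disc, was at 1770, 1710, 1690 and 1610 CPM, against 1340 ± 58.7 in the compact and 1430 ± 164 in the trabecular gate. Tagln, an actin-binding protein gene of smooth and immature cardiac muscle, was at 350, 246, 274 and 333 CPM, against 183 ± 26.3 and 185 ± 44.8. Its relative Cnn1 was at 169, 253, 189 and 187 CPM, against 151 ± 8.31 and 143 ± 18.0. These 3 genes were above both gates in all 4 libraries.

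Genes of the contractile apparatus were mixed in placement. Of 10 thick filament genes, 5 were above the compact gate in all 4 libraries, and 7 were above the trabecular gate in none. Myh6, the fast myosin heavy chain gene, was at 695, 898, 627 and 469 CPM, between 422 ± 75.6 in the compact and 1090 ± 193 in the trabecular gate, and Myl4, the atrial essential light chain gene, at 4110, 4960, 3090 and 4470, between 2840 ± 241 and 7050 ± 1510. The ventricular light chain gene Myl2 was the most abundant of the list, at 14700, 14700, 11600 and 13000 CPM. Of 18 thin filament and Z disc genes, 4 were above the compact gate in all 4 libraries and 5 in none. Against the trabecular gate these counts were 6 and 8. In this list smooth muscle actin, Acta2, went with the compact gate, at 1550, 1050, 1710 and 1730 CPM against 1850 ± 272 and 564 ± 150.0. Among 12 calcium handling genes, the exchanger Slc8a1 led at 6880, 5880, 5560 and 3940 CPM, and Casq2, the calcium store protein gene, was at 212, 193, 148 and 127 CPM between 111 ± 12.4 and 378 ± 45.4.

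Glycolysis and hypoxia genes were above the trabecular gate more often than above the compact gate, as were genes in general. Of all genes at 50 CPM or more, 937 of 3216 were above the trabecular gate in all 4 libraries. Above the compact gate were 308 of 3187. Whether the lists differed from these shares was not tested. Of 18 glycolysis and lactate genes found, 14 were above the trabecular gate in all 4 libraries, whereas 1 was above the compact gate in all 4 and 10 in none. Gapdh was at 3380, 3620, 3410 and 4230 CPM, against 4090 ± 275 in the compact and 2350 ± 244 in the trabecular gate, and Ldha, which makes lactate, at 1370, 1310, 1390 and 1550 against 1700 ± 160.0 and 855 ± 119. The glucose transporter gene Slc2a1 was nearer the trabecular level, at 74.8, 59.6, 44.2 and 66.6 CPM against 102 ± 12.0 and 44.3 ± 11.2. Of 14 hypoxia response genes, 7 were above the trabecular gate in all 4 libraries and 8 above the compact gate in none, led by the mitophagy receptor gene Bnip3 at 128, 147, 221 and 169 CPM against 236 ± 40.4 and 56.8 ± 6.89. Of 15 fatty acid genes, 1 was above the trabecular gate in all 4 libraries and 8 in none, while 2 were above the compact gate in all 4 and 1 in none. Cd36, a fatty acid carrier gene, at 29.0, 42.1, 28.3 and 25.6 CPM, was near the compact 24.4 ± 4.1 and far from the trabecular 107 ± 15.2.

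Genes of growth and signalling varied in placement. Of 13 proliferation genes outside the definition, 7 were above the trabecular gate and 2 above the compact gate in all 4 libraries. For all genes at 50 CPM or more these counts were 937 of 3216 and 308 of 3187, and the difference was not tested. Mcm3, of the replication helicase, was at 43.5, 49.1, 45.9 and 61.5 CPM, against 47.0 ± 7.09 in the compact and 22.3 ± 1.84 in the trabecular gate, in cells taken for low counts of other cycle genes. The most abundant member, the cell cycle inhibitor gene Cdkn1c, was at 352, 438, 408 and 508 CPM, against 335 ± 68.3 and 400.0 ± 55.8. Erbb4, the neuregulin receptor gene of cardiomyocytes, lay between the gates at 1020, 1270, 958 and 897 CPM, against 1320 ± 192 and 744 ± 218. Its ligand gene Nrg1 had 0 UMIs in hybrid cells. Among BMP and TGF-beta response genes, Id2 led at 45.9, 77.2, 60.1 and 78.9 CPM, against 85.8 ± 17.5 and 22.1 ± 5.56. Of 8 chamber factor genes, Tbx5, a factor of the trabecular conduction program, was at 26.6, 14.0, 40.6 and 20.5 CPM, below the trabecular 70.6 ± 15.2 in all 4 libraries, and Gata4 was the most abundant at 285, 239, 208 and 190 CPM. Hspa8 led the immediate early and heat shock genes at 850, 737, 809 and 934 CPM.

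Hybrid cells were a larger share of cardiomyocytes in each eKO library than in each control library. They made up 42 of 2524, 24 of 1353, 42 of 1763 and 142 of 2932 gated non-cycling cardiomyocytes, or 1.66%, 1.77%, 2.38% and 4.84%. The exact 95% intervals, which cover counting error alone, were 1.2% to 2.24%, 1.14% to 2.63%, 1.72% to 3.21% and 4.09% to 5.68%. The interval of eKO replicate 1 overlapped those of both controls, and that of eKO replicate 2 overlapped no other. The group means were 1.72% ± 0.0776 and 3.61% ± 1.74 (SD, n = 2 libraries each), a difference of 1.89 percentage points with a two-sided exact permutation p of 0.333, the smallest that 2 against 2 libraries allow. Without eKO replicate 2 the difference in share was 0.663 points, and without eKO replicate 1 it was 3.12. With both lower limits raised to 0.1%, the shares were 0.594%, 0.37%, 0.51% and 1.13%, the groups overlapped, and the exact p was 0.667.

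**Figure D4:**
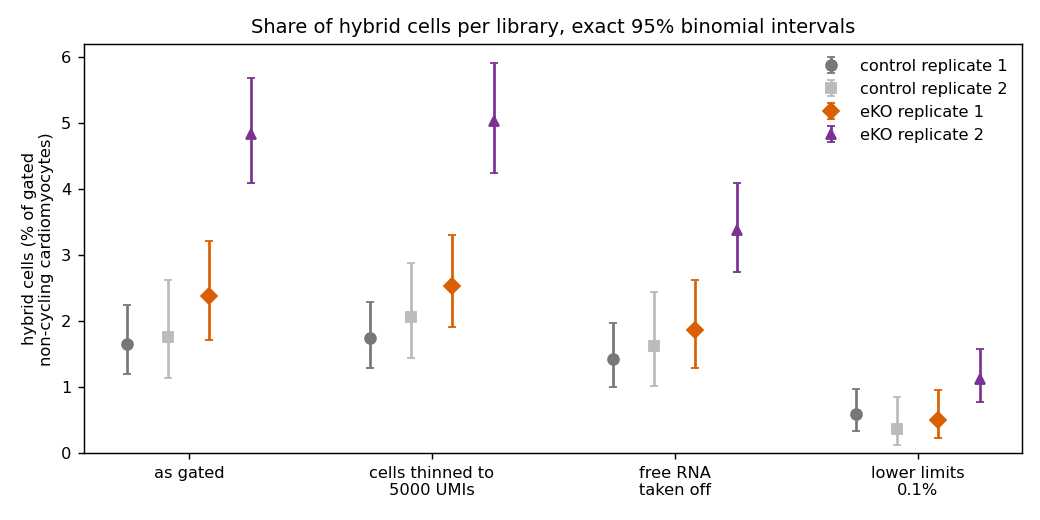
Hybrid cells as a percent of gated non-cycling cardiomyocytes (y axis) per library with exact 95% binomial intervals, as gated and under other settings. eKO replicate 2 is the highest in each setting, and with the lower limits at 0.1% eKO replicate 1, at 0.51%, lies between the controls.

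Depth and free Nppa RNA differed along with the share of hybrid cells. With the barcodes of at least 5000 UMIs thinned to 5000 before gating, the shares were 1.75%, 2.07%, 2.54% and 5.03%, with eKO above control. That setting leaves out cells under 5000 UMIs, 38 of the 142 hybrid cells of eKO replicate 2, and applies the UMI limits on endothelial and cycle genes at the lower depth. Its gated non-cycling cardiomyocytes numbered 2918, 1641, 2130 and 2783, against 2524, 1353, 1763 and 2932, so it does not compare the same cells. With the fibroblast-gate percent of each marker taken off, the shares were 1.43%, 1.63%, 1.87% and 3.38%, a difference of 1.1 points. Both limits were met by 0 of 580, 0 of 587, 1 of 654 and 2 of 577 fibroblast-gate barcodes, at most 0.347% in eKO replicate 2, although 6.24% of its fibroblast-gate barcodes had Nppa from 0.05% to under 0.5%. Those barcodes had medians of 7087.5, 6877, 6877 and 4107 UMIs. The part of free RNA in the remaining difference was not tested.

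Cells around the hybrid gate differed between libraries as well. Among cells with Nppa from 0.05% to under 0.5%, Tnnt1 reached 0.05% in 13.2%, 14.6%, 17.9% and 30.3%. After thinning to 5000 UMIs these shares were 15.5%, 19.3%, 19.7% and 30.0%. Cells with that Nppa level and less Tnnt1 made up 10.9%, 10.3%, 10.9% and 11.1% of gated cardiomyocytes, a narrow range. Cells with Nppa at 0.5% or more reached the Tnnt1 limit in 4.14%, 3.16%, 3.17% and 6.82%, and cells with Nppa under 0.05% in 46.4%, 38.7%, 46.3% and 50%. eKO replicate 2 was the highest in each Nppa band, and its trabecular gate was also the largest, at 16.8% of cells against 11.9%, 11.3% and 10.4%.

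Within the hybrid cells, few genes differed between eKO and control. The 6140 genes tested with edgeR left out the genes named in the definition but held those of the mitochondrial genome. Of these 6140 genes, 10 passed an adjusted p of 0.05 (0.163%), 6 higher in eKO (0.0977%) and 4 lower (0.0651%). At an unadjusted p under 0.05 there were 432. In 9 of the 10 the libraries of the groups did not overlap, which also held for 37.6% of all genes tested. DESeq2 called 1 gene, Kctd16, with 89 genes at an unadjusted p under 0.05, and gave the other 9 an adjusted p of 0.999. The count depended on single libraries, with 13, 2, 44 and 30 genes called without control replicate 1, control replicate 2, eKO replicate 1 and eKO replicate 2, of which 6, 2, 10 and 3 were among the 10. With cells gated after thinning to 5000 UMIs, edgeR called 0 genes, with 633 at an unadjusted p under 0.05.

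Kctd16, which encodes an auxiliary subunit of GABA-B receptors, fell most clearly. It was at 86.9, 109, 17.7 and 17.4 CPM, from 36, 31, 10 and 17 UMIs in 12, 5, 6 and 14 cells. In control replicate 2, 15 of the 31 UMIs (48.4%) came from 1 cell. Both eKO libraries were below both controls by about the same extent, a log2 change of -2.39 (SE 0.36, adjusted p = 2.04e-05 by edgeR, 4 libraries). The gene (ENSMUSG00000051401) is annotated at chr18:40256962-40531630 on the plus strand of GRCm38. In the trabecular gate Kctd16 also fell, by 2.73 on the log2 scale (adjusted p = 0.00113 by edgeR), from 61.7 and 37.0 to 10.5 and 4.78 CPM. In the compact gate Kctd16 was at 91.7, 78.6, 55.8 and 54.0 CPM, a log2 change of -0.56 that did not pass (adjusted p = 0.488). It passed in hybrid cells under each omission of a library, and with DESeq2 at an adjusted p of 0.0403, but not when cells were gated after thinning (-1.79, adjusted p = 0.117).

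Receptor and scaffold genes were the other autosomal genes that fell. Chrm2 (ENSMUSG00000045613, chr6:36388084-36528414), the muscarinic receptor through which the vagus slows the heart, was at 96.6, 102, 47.7 and 28.7 CPM (log2 change -1.38, SE 0.32, adjusted p = 0.0338). The groups did not overlap, but the call was lost without control replicate 1, control replicate 2 or eKO replicate 2 (adjusted p = 0.218, 0.594 and 0.394). In all, it was lost in 11 of 14 alternatives, with changes from -2.51 to -0.89 and adjusted p up to 0.999. Chrm2 was also a trabecular-side axis gene, and the hybrid cells compared differed in Nppa, at 1920, 1960, 1250 and 1330 CPM. The part of that in the Chrm2 change was not tested. Magi2 (ENSMUSG00000040003, chr5:19227036-20704792), a scaffold protein gene of cell junctions, was at 65.2, 49.1, 14.1 and 16.4 CPM on 27, 14, 8 and 16 UMIs (-1.84, SE 0.41, adjusted p = 0.0224). The groups again did not overlap, and the call was lost without control replicate 1 or control replicate 2 (adjusted p = 0.479 and 0.157), and in 7 of 13 alternatives in all, with changes from -2.0 to -0.76. In control replicate 1, 12 of its 27 UMIs came from 1 cell. In the trabecular gate Chrm2 was at 192, 210, 156 and 128 CPM and Magi2 at 67.4, 61.2, 44.6 and 33.5 CPM, and neither passed there (adjusted p = 0.327 and 0.23).

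Of the genes that rose, Lsm2 was the autosomal gene outside the hemoglobins. Lsm2 (ENSMUSG00000007050, chr17:34981862-34985891), part of a ring that binds U6 RNA in splicing and mRNAs in decay, was at 33.8, 35.1, 70.7 and 117 CPM, from 14, 10, 40 and 114 UMIs (log2 change 1.54, SE 0.35, adjusted p = 0.0332). Both eKO libraries were above both controls, with eKO replicate 2 the highest. The call was lost without control replicate 1, control replicate 2 or eKO replicate 2 (adjusted p = 0.32, 0.594 and 0.319), where the change without eKO replicate 2 was 1.1. In all, it was lost in 11 of 13 alternatives, among them DESeq2 (adjusted p = 0.999) and thinning before the gate (0.82, adjusted p = 0.588). In the compact gate Lsm2 was at 64.0, 55.5, 62.6 and 84.0 CPM, and in the trabecular gate at 50.9, 48.4, 53.2 and 67.2 CPM. It passed in neither (adjusted p = 0.601 and 0.337 by edgeR), and the hybrid controls lay below both gates.

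Hemoglobin genes were higher in eKO through a single barcode. Hbb-y, an embryonic beta globin gene, was at 21.7, 14.0, 23.0 and 2930 CPM (6.37, SE 0.76, adjusted p = 6.32e-08), and 2816 of its 2861 UMIs in eKO replicate 2 came from 1 cell. The same held for Hba-a1 (19.3, 7.02, 24.7 and 530.0 CPM, log2 change 4.38, with 491 of 517 UMIs in 1 cell), Hbb-bt (29.0, 0, 30.0 and 251 CPM, 3.18, 222 of 245) and Hba-a2 (26.6, 7.02, 17.7 and 296 CPM, 3.22, 267 of 289). eKO replicate 2 alone was high, and control replicate 2 was the lowest for each of the 4 genes. Hba-a1 and Hba-a2 are near-identical copies, so reads may be split between them with error. Without control replicate 2, no hemoglobin gene passed (adjusted p = 0.116 for Hbb-y, 0.186 for Hba-a1, 0.594 for Hbb-bt and 0.668 for Hba-a2). Without eKO replicate 2, the changes of Hba-a1, Hbb-bt and Hba-a2 were 0.87, 0.9 and 0.03, with adjusted p = 0.963, 0.913 and 0.999. Without the 1 hybrid cell above 2% hemoglobin, 4 genes were called (Kctd16, Magi2, Xist and Uty), and Hbb-y had a log2 change of 1.04 (adjusted p = 0.647).

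The remaining calls were sex-linked genes. Xist was at 0, 105, 161 and 323 CPM (2.48, SE 0.43, adjusted p = 0.000442) and Uty at 79.7, 80.7, 30.0 and 0 CPM (-2.69, SE 0.51, adjusted p = 0.00159). Without control replicate 1 the Xist change was 1.29 (adjusted p = 0.317), and without eKO replicate 2 the Uty change was -1.34 (adjusted p = 0.137). Without control replicate 2 the controls held 0 Xist UMIs, and without eKO replicate 1 the eKO group held 0 Uty UMIs, so no fold is given for these. The Uty call was also lost without control replicate 2 (adjusted p = 0.191).

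**Figure D5:**
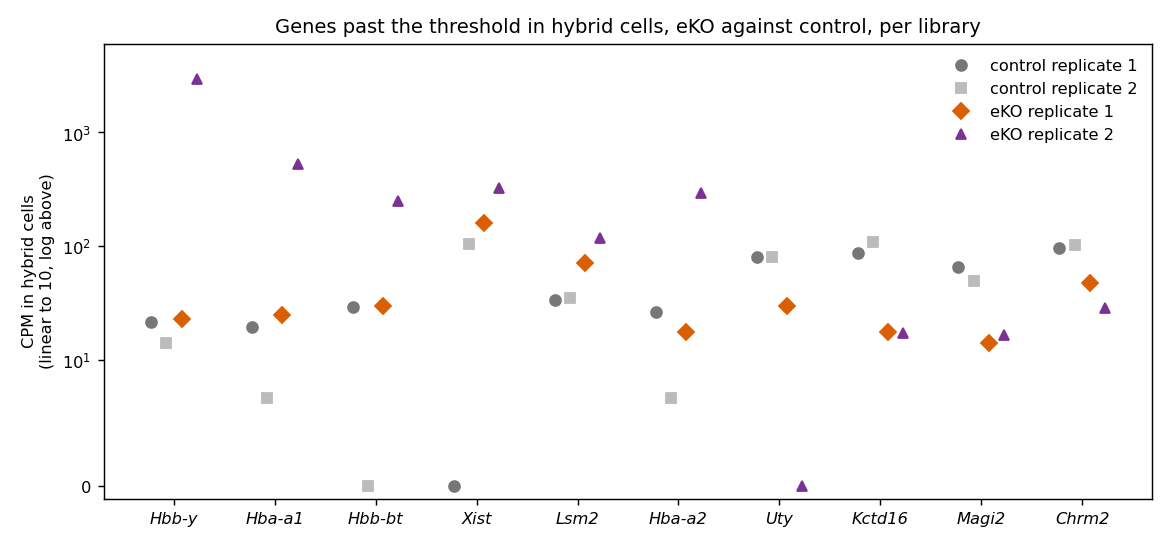
CPM in hybrid cells (y axis, linear to 10 and logarithmic above) of the 10 genes past the threshold, 1 symbol per library. Kctd16, Magi2 and Chrm2 are lower in both eKO libraries, Lsm2 is higher in both, and the hemoglobin genes are high in eKO replicate 2 alone.

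Further genes came near the threshold in hybrid cells without passing it. The mitochondrial gene mt-Co3, a subunit of cytochrome c oxidase, is part of the mitochondrial sum that the definition limits. mt-Co3 was at 10400, 12300, 6380 and 6750 CPM (log2 change -0.74, adjusted p = 0.0536). It passed without eKO replicate 1 (adjusted p = 3.73e-06) or eKO replicate 2 (adjusted p = 4.74e-07), and with total-count scaling (adjusted p = 0.0222). Tenm3, a synaptic adhesion gene, was at 29.0, 70.2, 12.4 and 12.3 CPM (adjusted p = 0.0944, or 0.0101 without control replicate 1 and 0.0392 with a replicate block), and Ramp1, a coreceptor of the calcitonin receptor-like receptor, at 116, 123, 45.9 and 55.3 CPM (adjusted p = 0.106). Gm13481, an unnamed locus, had adjusted p = 0.122, Rasgef1b 0.148 (0.0382 without eKO replicate 1) and the Y-linked Eif2s3y 0.0536 (1.11e-10 without eKO replicate 1, 0.0016 with no filter and 0.00335 with a replicate block), each with its eKO libraries below the controls. On the higher side stood Rps19bp1 at 33.8, 28.1, 86.6 and 70.7 CPM (adjusted p = 0.112) and Tuba1c at 4.83, 3.51, 37.1 and 20.5 CPM (adjusted p = 0.151, or 0.0486 with no filter). The X-linked Itm2a was at 36.2, 24.6, 58.3 and 93.3 CPM (adjusted p = 0.121). Rps19bp1 passed without eKO replicate 2 (adjusted p = 0.0219) and Itm2a without eKO replicate 1 (adjusted p = 0.00182). Apoe, a lipoprotein gene abundant in macrophages, was at 36.2, 45.6, 28.3 and 222 CPM (1.78, adjusted p = 0.0665), with 92 of the 217 UMIs of eKO replicate 2 in 1 cell. Its change was -0.44 without eKO replicate 2 and 2.54 without eKO replicate 1 (adjusted p = 3.09e-11), and it passed with no filter (1.87, adjusted p = 6.34e-05).

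Of the 23 gene lists, called genes fell in the sex-linked and erythroid lists, and edgeR called 0 members of the cardiac lists in hybrid cells, beside the 432 genes at an unadjusted p under 0.05 and 1 call by DESeq2 outside the lists. The median log2 change over all genes tested was 0.005. The compact zone list had a median of 0.05 with none of 8 members called, and the trabecular and conduction list a median of 0.0 with none of 10 called. Glycolysis and lactate genes had a median of 0.19, with 12 of 18 above 0. Their sum, at 10900, 10600, 10900 and 13300 CPM, was high in eKO replicate 2 alone. Calcium handling genes had a median of -0.33, with 10 of 12 below 0, and thick filament genes -0.21, with 8 of 9 below 0. Calcium handling genes summed to 15000, 14200, 12200 and 9930 CPM in hybrid cells. The eKO libraries were also below the controls in the compact gate, at 13700, 13300, 11600 and 9970 CPM. The same held in the trabecular gate, at 17500, 18600, 14500 and 12300 CPM. Thin filament genes had a median of 0.13 over 15 members, fatty acid genes 0.12 over 13, hypoxia genes -0.05 over 8 and proliferation genes 0.24 over 9. Medians were -0.49 for 3 atrial genes, -0.23 for 7 chamber factors, -0.41 for 5 BMP and TGF-beta response genes, -0.29 for 4 neuregulin and Notch genes and -0.02 for 9 immediate early and heat shock genes. No fibroblast or atrioventricular canal gene was abundant enough to be tested, while the 5 erythroid genes had a median of 3.22 and the 4 sex-linked genes -2.14. The 2 epicardial and 2 smooth muscle genes tested had medians of 0.09 and -0.01, and the single endothelial and immune genes had changes of -1.5 and 0.06.

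All 13 genes of the mitochondrial genome were tested in hybrid cells, 12 had a log2 change below 0, the median was -0.47, and 0 passed with edgeR or DESeq2, where 432 and 89 of all genes had an unadjusted p under 0.05. Their sum was 62900, 65600, 44200 and 44800 CPM, so the eKO libraries were below the controls. The eKO libraries were also below the controls in the compact gate, at 56800, 57300, 43800 and 46000 CPM, and in the trabecular gate, at 79400, 81100, 69100 and 64000 CPM. The median share of mitochondrial UMIs per hybrid cell, which also reads RNA quality, was 5.49%, 6.03%, 4.08% and 4.26%, and its part in the result was not tested.

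Did the eKO response of hybrid cells differ from that of the cells on either side? Beside the hybrid cells, 2 of 12527 genes passed in the compact gate (0.016%) and 6 of 10808 in the trabecular gate (0.0555%), and all gates share the same 4 libraries. The compact genes were Tnni2, the fast skeletal troponin I, higher by 1.57 on the log2 scale, and Sorcs2, with a log2 change of -1.415. The difference itself was tested with edgeR on sums per gate and library.

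Against the compact gate, no difference in eKO change passed in hybrid cells. With edgeR, 0 of 11554 genes passed (0.0%), beside 440 at an unadjusted p under 0.05, and no other tool was run. Leaving out control replicate 1, control replicate 2, eKO replicate 1 or eKO replicate 2 gave 14, 13, 6 and 7 genes. The smallest p belonged to Fabp4 (difference of log2 changes -2.52, adjusted p = 0.112), Kctd16 (-1.78, adjusted p = 0.112), Magi2 (-1.59, adjusted p = 1.0), Stimate and mt-Co3 (-0.24, adjusted p = 1.0, or 0.0229 without control replicate 1). Kctd16 passed with no filter beyond 1 count (adjusted p = 0.000457) and without control replicate 1 (-2.06, adjusted p = 0.00136), and not under the other 7 alternatives. Fabp4, a fatty acid carrier gene of endothelium, was at 45.9, 31.6, 7.07 and 17.4 CPM in hybrid cells and at 14.6, 8.11, 12.2 and 30.4 CPM in the compact gate. It passed with no filter beyond 1 count (adjusted p = 0.000861), without control replicate 2 (adjusted p = 0.00542), without eKO replicate 1 (adjusted p = 0.0492) and with called doublets removed (adjusted p = 0.00686). After thinning before the gate it was -0.58 (adjusted p = 1.0), and 12 of its 19 UMIs in control replicate 1 came from 1 cell. The store-operated calcium entry gene Stimate had 0, 0, 7 and 13 UMIs in hybrid cells, at least 3.02-fold higher in the eKO group if 3 counts over the group are taken as the floor for 0. The compact gate had 14.4, 13.5, 11 and 11.6 CPM of it, the difference did not pass (adjusted p = 1.0), and its fitted value, which rests on the 0 counts, went from 8.94 to 0.24 after thinning before the gate.

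Against the trabecular gate, the change of 13 of 10132 genes differed (0.128%), beside 515 at an unadjusted p under 0.05. Of these, 8 had a higher change in hybrid cells (0.079%) and 5 a lower change (0.0493%). Leaving out control replicate 1, control replicate 2, eKO replicate 1 or eKO replicate 2 gave 22, 30, 15 and 14 genes. The first 5 by p were Hba-x, Hba-a1, Hbb-y, Myl4 and Hbb-bt, and further ones were named because they passed, after their values were seen.

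Hemoglobin genes made up 5 of the 13. Hba-x had 1, 0, 2 and 558 UMIs in hybrid cells, 551 of them in 1 cell of eKO replicate 2, and its difference was 10.25 (adjusted p = 4.41e-12). It was lost without eKO replicate 2 (adjusted p = 0.698) or control replicate 1 (adjusted p = 0.21). Hbb-y differed by 8.77, with 763, 8.39, 35.9 and 76.3 CPM in the trabecular gate, so that control replicate 1 was high there while eKO replicate 2 was high in hybrid cells. It still passed without eKO replicate 2 (3.87, adjusted p = 2.37e-05) or control replicate 1 (3.69, adjusted p = 1.8e-05), but was -1.05 (adjusted p = 0.924) once cells above 2% hemoglobin were removed from the gates. Hba-a1 differed by 5.43 and passed without eKO replicate 2 (3.0, adjusted p = 0.0136) but not without control replicate 1 (3.02, adjusted p = 0.116). Hbb-bt differed by 3.55, or 2.19 without eKO replicate 2 (adjusted p = 0.256). Without control replicate 1 the hybrid controls held 0 UMIs of it, so no fold is given. Hba-a2 differed by 3.99, or 1.52 without eKO replicate 2 (adjusted p = 0.983) and 2.48 without control replicate 1 (adjusted p = 0.461).

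Myl4 (ENSMUSG00000061086, chr11:104550663-104595753) gave the smallest p between hybrid and trabecular cells outside the hemoglobins. In hybrid cells it was at 4110, 4960, 3090 and 4470 CPM, a log2 change of -0.21 that did not pass. In the trabecular gate it was at 5880, 6340, 6710 and 9260 CPM, a change of 0.49 that did not pass either. The groups overlapped in hybrid cells, whereas both eKO libraries were above both controls in the trabecular gate. The difference was -0.67 (SE 0.08, adjusted p = 5.33e-06), and it passed under each omission of a library but not after thinning before the gate (-0.57, adjusted p = 0.661).

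Kcnd2 and Mb showed the opposite difference. Kcnd2, a potassium channel gene, was at 302, 284, 468 and 364 CPM in hybrid cells and at 116, 172, 80.5 and 73.3 CPM in the trabecular gate, a difference of 1.31 (SE 0.2, adjusted p = 0.000178). In the trabecular gate both eKO libraries were below both controls, whereas in hybrid cells both were above them. The difference of Kcnd2 passed under each omission of a library, but not after thinning before the gate (0.83, adjusted p = 0.342). Myoglobin, Mb, was at 954, 768, 1190 and 926 CPM in hybrid cells and at 418, 366, 301 and 272 CPM in the trabecular gate (difference 0.71, adjusted p = 0.0118, or 0.465 without eKO replicate 1). After thinning before the gate, it was 0.42 (adjusted p = 0.986).

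Like Myl4, the genes mt-Co3, Fabp4, AY036118 and Gm42418 had a lower change in hybrid cells than in the trabecular gate. Of these, mt-Co3 is part of the mitochondrial sum that the definition limits. mt-Co3 differed by -0.38 (adjusted p = 0.00917, or 0.116 without control replicate 1 and 0.912 without eKO replicate 1), with 13000, 15300, 10800 and 10300 CPM in the trabecular gate. Fabp4 differed by -2.48 (adjusted p = 0.0132, or 0.299 without eKO replicate 2), and by -0.16 after thinning before the gate (adjusted p = 0.999). AY036118 and Gm42418 overlap ribosomal RNA repeats, so their counts are uncertain. AY036118 was at 220.0, 158, 185 and 160.0 CPM in hybrid cells and at 122, 144, 364 and 296 CPM in the trabecular gate (-1.51, adjusted p = 6.21e-05, or 0.116 without control replicate 1). Gm42418 differed by -0.52 (adjusted p = 0.0118, or 0.643 without control replicate 1, at -0.27, and 0.214 without eKO replicate 1). After thinning before the gate, the differences of mt-Co3, AY036118 and Gm42418 were -0.22, -0.89 and -0.27, and none passed (adjusted p = 0.986, 0.153 and 0.986).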

How the data were processed

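The authors deposited UMI counts per gene and cell barcode, made with Cell Ranger 7.1.0 on mm10 from 4 libraries. Whether the deposited matrices were filtered further is not stated. Hybrid, compact and trabecular gates were applied to each barcode, and UMI counts were summed per library and gate. Sums were tested with edgeR 4.0.16 (R 4.3.3; TMM, filterByExpr, quasi-likelihood test, two-sided, adjusted p of 0.05 or less after Benjamini-Hochberg over all genes tested), with DESeq2 1.42.0 as an alternative. Genes named in the gate stayed in the fit but out of the counts. Mitochondrial genes, which the gate limits as a sum, were tested and counted. Shares per library were compared by exact permutation, and intervals are exact binomial (scipy 1.17.1). Doublets were scored against simulated barcodes. The fit was tested on simulated data, and no result of that is used here. Gene positions are from GENCODE vM21 on GRCm38. Members and gene lists were chosen with earlier results of these data known.

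Named genes were the genes of the gate, 2 to 4 members per list (the most abundant and any past the threshold), the 10 largest changes per direction among non-overlapping calls, filled to 10 by the smallest p, the first 5 of each difference test, and the 10 largest ratios of hybrid to either gate. Hba-a2, further differing genes and some list members were named after their values were seen. Not every gene that meets these rules is described.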

Additional observations from a re-analysis of the deposited data

Results flagged for a closer look

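The eKO change differed between hybrid and trabecular-gate cells, by the test of the difference itself, in several genes, not all of which are described. The differences of log2 changes included 10.25 for Hba-x, 8.77 for Hbb-y, 5.43 for Hba-a1, 3.99 for Hba-a2 and 3.55 for Hbb-bt, whose eKO change was higher in hybrid cells, where most of their UMIs came from 1 barcode of eKO replicate 2. They were 1.31 for Kcnd2 and 0.71 for Mb, whose eKO change was higher in hybrid cells. They were -0.38 for mt-Co3, -0.52 for Gm42418, -0.67 for Myl4, -1.51 for AY036118 and -2.48 for Fabp4, whose change was lower in hybrid cells.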

How the results depend on the processing

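The difference in the share of hybrid cells kept its sign under all 14 alternatives, at 0.336 to 2.09 points with all libraries, and 0.663 to 3.12 with 1 library left out. Omissions leave 1 library in a group, which the fits assume to vary like the other group. The count of 10 genes changed in hybrid cells became 17 with no filter, 1 with DESeq2, 2 with called doublets removed, 0 with cells gated after thinning to 5000 UMIs (edgeR; 633 at an unadjusted p under 0.05), 3 with mitochondrial UMIs of at most 10%, 4 with limits of 0.1%, 5 in cells of 5000 to 20000 UMIs, and 4 with hemoglobin of at most 2%. It ranged from 2 to 44 with 1 library left out, and with a replicate block it was 10, of which 8 were shared. Against the compact gate, 7 genes differed with no filter, 3 without doublets, 6 after thinning, and 6 to 14 with 1 library left out. Against the trabecular gate, the 13 became 24 with no filter, 4 after thinning, and 14 to 30 with 1 library left out.

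After thinning, the changes of Hba-a1, Hbb-bt and Hba-a2 turned to -0.62, -1.36 and -0.87, and their differences from the trabecular gate to -1.44, -2.25 and -1.67. With hemoglobin of at most 2%, the differences of Hba-a1, Hbb-y and Hba-a2 were -0.07, -1.05 and -0.76, and this alternative removes the cells that held most of that RNA. With 1 library left out, Apoe ranged from -0.44 to 2.54. Elsewhere the cause was not tested. Of 255 other values for the 20 named genes, 177 kept sign and side of the threshold, 60 lost the call, 14 gained one and 4 reversed, and of 152 for the 17 differences described 118, 21, 7 and 6 did. Of 289 list medians 240 stayed within the spread and 49 moved. The alternatives on hemoglobin, on 3 UMIs of each marker and on depth for the share were chosen after seeing the data. Between 24 and 142 hybrid cells per library limit the genes tested.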
